A study of Mus musculus with 2 samples.

Results

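The genes described are the Wnt ligands, their receptors and co-receptors, the R-spondins, the secreted Wnt inhibitors and a pair of Wnt response genes in single cells of embryonic mouse limb muscle. They were chosen by name: every row of the count matrices whose symbol is Wnt, Fzd, Rspo, Dkk or Sfrp followed by a number, together with Lrp5, Lrp6, Axin2, Lef1, Wif1 and Frzb. This gave 47 of the 32285 genes in the matrices: 19 ligands, 10 Frizzled receptors, 2 co-receptors, 4 R-spondins, 10 secreted inhibitors and 2 response genes. In total 39 reached 20 unique molecular identifiers (UMIs, each counting 1 captured RNA molecule) over the kept cells of both ages. The other 8 were Wnt1, Wnt3a, Wnt7a, Wnt8a, Wnt8b, Wnt9b, Wnt10a and Dkk4, and of these Wnt8a had no UMI in either library. The study profiled wild-type C57Bl/6 embryos at embryonic stages E12.5 and E15.5, with 1 library of dissociated limb muscle at each age and muscle of forelimbs and hindlimbs in the same library. The number of embryos pooled per library is not given in the sources used here, and neither age was treated.

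Wnt proteins are lipid-modified secreted ligands that act mostly on cells close to their source. They bind a Frizzled receptor, and with the co-receptor Lrp5 or Lrp6 they stabilise β-catenin, which acts with Tcf and Lef factors on target genes such as Axin2. Other ligands, Wnt5a among them, act largely without β-catenin on cell polarity and movement. R-spondins keep Frizzled receptors at the cell surface, Dkk proteins bind the co-receptors, and Sfrp proteins, Frzb and Wif1 bind the ligands outside the cell. In the limb these signals are known for roles in outgrowth, cartilage and joint formation, and the growth and differentiation of muscle progenitors.

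After filtering, 11001 cells remained at E12.5 (median 2323 UMIs per cell) and 3916 at E15.5 (median 9331.5), from libraries of 34907675 and 46966083 UMIs in total. Each library was clustered separately without the genes described here, and clusters were named from marker genes as "-like" classes. The tissue was labelled skeletal muscle, but connective tissue-like cells made up 73.8% of cells at E12.5 (8119 cells, 95% exact binomial interval to 74.6%) and 50.7% at E15.5 (1984 cells, interval to 52.2%). Muscle-lineage-like cells, carrying Pax7, Myf5, Myod1 or Myog, numbered 608 (5.53%) and 394 (10.1%). The chondrocyte-like class held 752 and 303 cells, the tenocyte-like class 607 and 152, the endothelial-like class 130 and 152, and the Schwann-like class 30 and 82. Unnamed clusters held 655 and 599 cells. In total 17 barcodes occurred in both libraries.

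Levels are given in CPM, the count of a gene scaled to the same total of summed UMIs in every class and library, so they compare a gene between classes or ages and not different genes with each other. With 1 library per age there was no replicate and no test. Brackets hold 95% intervals, which cover counting error only, and embryonic age and library cannot be told apart. A gene was compared when the 2 sums held at least 20 UMIs together, and a difference of at least 2-fold was counted as higher or lower. A count of 0 was set to 3 counts, which makes the fold a lower bound ("at least"). A log2 ratio compares E15.5 with E12.5 unless classes are named.

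Classes were ordered by a gene's level only where they held at least 20 cells and at least 10 UMIs of that gene, so a class with a higher level from a few UMIs is not counted as leading. Under this rule connective tissue-like cells led for 7 of the 8 ligands that could be ordered at E12.5 and for 5 of 11 at E15.5. At E12.5, 33 of the genes could be ordered, and 18 of them led in the connective tissue-like class, 6 in tenocyte-like cells, 4 in endothelial-like, 3 in Schwann-like and 2 in chondrocyte-like cells. At E15.5, 38 could be ordered, with 13 leading in connective tissue-like, 9 in chondrocyte-like, 8 in epithelial-like, 4 in tenocyte-like, 3 in Schwann-like and 1 in endothelial-like cells. The classes that could lead differ between the ages. Epithelial-like cells were too few at E12.5 (17 cells) and entered at E15.5 (26 cells), so these counts do not measure a change with age. For low genes the rule decides the order: Fzd5, Rspo1, Rspo2, Wnt16 and Dkk1 at E12.5, and Rspo1, Rspo2 and Rspo4 at E15.5, had a higher CPM in a class with under 10 UMIs of the gene. The leading class exceeded the next beyond counting error for 10 of the 33 and 22 of the 38. The connective tissue-like class also held 70.4% and 50% of all UMIs, so a share of a gene's UMIs is read against these values. It also passes the minimum of 10 UMIs most easily. The share of all genes leading in each class was not computed, so the counts are not read as particular to these genes. The other ligand at E12.5, Wnt4, led in tenocyte-like cells. The other ligands at E15.5 led in epithelial-like (4), chondrocyte-like (1) and tenocyte-like (1) cells.

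**Figure D1:**
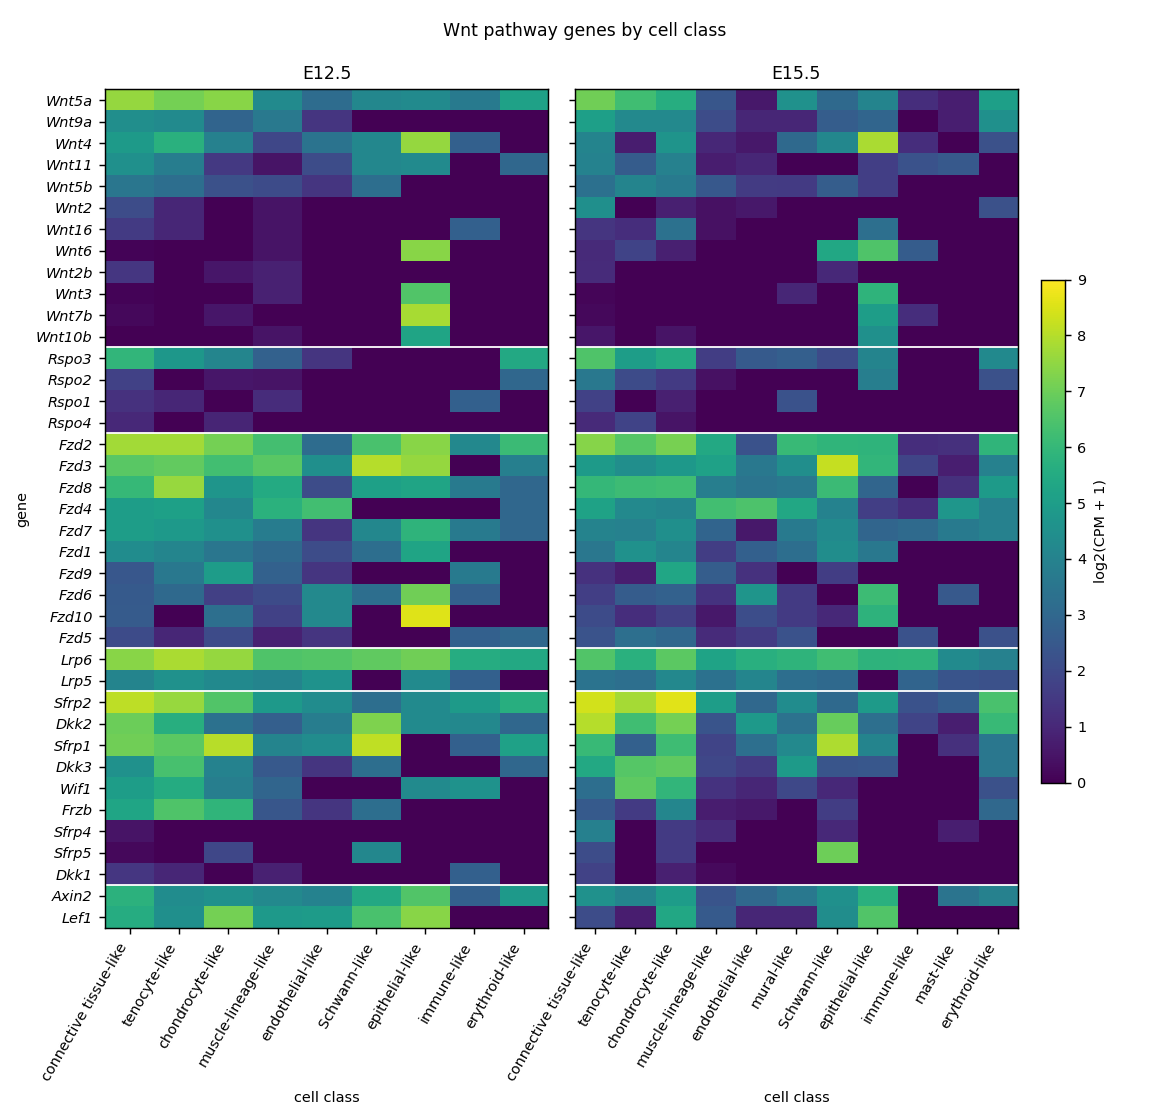
Heatmap of 39 of the genes (rows, by role) across cell classes (columns) at both ages, coloured by log2(CPM + 1) of the summed UMIs of each class. Brighter colours are higher levels. Wnt5a and Rspo3 are brighter in the connective tissue-like columns than in the muscle-lineage-like columns, while Lrp6 is above the darkest colour in nearly all columns.

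Wnt5a, the ligand known for elongating the limb bud and acting largely without β-catenin, lies on chromosome 14 (chr14:28504750-28527448, plus strand, GRCm38). Its level in connective tissue-like cells was 192 CPM (186 to 198) in the E12.5 library and 132 CPM (127 to 137) in the E15.5 library, with a log2 ratio of -0.54 (-0.62 to -0.47). That class held 80.9% (79.7 to 82%) and 81.5% (80.2 to 82.8%) of its UMIs, and muscle-lineage-like cells held 0.994% and 0.79%. Most Wnt5a molecules were therefore captured in mesenchymal cells in both libraries. Chondrocyte-like cells were close behind at E12.5, at 168 CPM (connective tissue-like over chondrocyte-like 1.14-fold, 1.03 to 1.27), but not at E15.5, at 47.7 CPM. Among the connective tissue-like clusters the level was 292 CPM in cluster 3 (led by Calb2 and Kera) and 284 CPM in cluster 16 at E12.5. At E15.5 it was 204 CPM (186 to 223) in cluster 6, led by the fibroblast gene Dpt.

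Wnt2, a ligand of the β-catenin branch, stood at 3.21 CPM (64 UMIs) at E12.5 and 21.3 CPM (433 UMIs) at E15.5 in connective tissue-like cells. The log2 ratio was 2.73 (2.34 to 3.13), and 94.1% and 93.3% of Wnt2 UMIs lay in that class. At E15.5 Wnt2 was 28.5-fold higher there (7.84 to 236) than in the class with the next level. Its UMIs were concentrated in a few clusters: cluster 6 reached 80.4 CPM (69.3 to 92.8) and cluster 20 (led by Spink6) 51.5 CPM. Wnt2 was itself among the 10 leading genes of cluster 6, although it had no part in the clustering.

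Wnt9a, a ligand known from forming joints, was at 21.0 CPM in connective tissue-like cells at E12.5 and 32.4 CPM at E15.5 (log2 ratio 0.63, 0.45 to 0.81). The highest cluster at E15.5 was cluster 20, at 138 CPM (111 to 169). In muscle-lineage-like cells Wnt9a was lower at E15.5, at 3.28 CPM against 11.5 CPM (log2 ratio -1.81).

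Wnt11, a ligand of cell polarity, had 91.9% (89.1 to 94.2%) and 76% (71.5 to 80.1%) of its UMIs in connective tissue-like cells of the E12.5 and E15.5 libraries, with levels of 21.8 and 14.8 CPM. The clusters with most Wnt11 at E12.5 were cluster 14, led by Dcn and Sall1, at 72.2 CPM and cluster 3 at 60.2 CPM. In muscle-lineage-like cells the 2 libraries held 1 and 4 UMIs of Wnt11.

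Wnt4, which signals in joints and epithelia, reached its highest level in epithelial-like cells at both ages, with 188 CPM from 10 UMIs in 17 cells at E12.5. Among E12.5 classes of at least 20 cells it led in tenocyte-like cells, at 51.5 CPM against 28.8 CPM in connective tissue-like cells. At E15.5 the epithelial-like class led with 232 CPM against 24.2 CPM in chondrocyte-like cells (9.59-fold, 6.97 to 13.3), and tenocyte-like cells held 1 UMI of Wnt4. Its highest E12.5 cluster was connective tissue-like cluster 21, at 151 CPM. Within the E15.5 mesenchyme, Wnt4 was concentrated in connective tissue-like cluster 14, at 185 CPM (160 to 214), against 15.8 CPM in the class as a whole. That cluster held 85 cells and was led by Twist2, Stmn2 and Irx1. Axin2, Dkk1, Rspo1, Fzd10 and Sfrp5 also had their highest E15.5 level among the mesenchymal clusters there, with 22.8 CPM of Dkk1 and 29.7 CPM of Fzd10.

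Wnt3, Wnt6, Wnt7b and Wnt10b had their highest level in epithelial-like cells, which numbered 17 at E12.5 and 26 at E15.5, so these values rest on few cells. At E15.5 Wnt6 stood at 90.7 CPM there, 2.21-fold (1.39 to 3.51) above Schwann-like cells at 41.1 CPM. In UMIs this was 41 in epithelial-like, 39 in Schwann-like and 22 in connective tissue-like cells. Wnt3 stood at 57.5 CPM, 61.2-fold (10.1 to 2509) above the next class. Wnt10b was at 22.1 CPM (10 UMIs, with 9 more in connective tissue-like cells) and Wnt7b at 31.0 CPM (14 UMIs). These 4 ligands are known from skin and limb ectoderm. At E12.5 the 17 epithelial-like cells held 12 UMIs of Wnt7b (226 CPM), 9 of Wnt6 (169 CPM), 10 of Wnt4 (188 CPM) and 5 of Wnt3 (94.1 CPM). Elsewhere Wnt6 was nearly absent at E12.5, with 1 UMI in the connective tissue-like class against 22 at E15.5 (log2 ratio 4.43, 1.80 to 9.79). Wnt16 was found in chondrocyte-like cells at E15.5 (25 UMIs, 9.32 CPM) and not at E12.5 (0 UMIs), at least a 6.8-fold difference. Wnt5b had 209 and 184 UMIs in connective tissue-like cells at the 2 ages, and at E15.5 it led in tenocyte-like cells, at 15.9 CPM against 9.03 CPM in connective tissue-like cells. Wnt2b was at 1.66 and 1.18 CPM in connective tissue-like cells, with 33 and 24 UMIs.

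All 4 R-spondins led in connective tissue-like cells at both ages among classes with at least 10 UMIs of the gene. For all but Rspo3 that minimum largely set the order. Rspo1 and Rspo2 at both ages, and Rspo4 at E15.5, had a higher CPM in a class with fewer UMIs of the gene. Rspo3, with 86.7% (84.8 to 88.5%) and 77.6% (75.9 to 79.3%) of its UMIs there, was at 60.1 CPM at E12.5 and 90.2 CPM at E15.5 (log2 ratio 0.58, 0.48 to 0.69). At E15.5 Rspo3 was 2.03-fold (1.69 to 2.47) above the next class. It reached 209 CPM in an unnamed E12.5 cluster led by Grem1 and 235 CPM (199 to 275) in connective tissue-like cluster 20 at E15.5. Rspo2 had 46 UMIs (2.31 CPM) at E12.5 and 230 UMIs (11.3 CPM) at E15.5 (log2 ratio 2.29, 1.83 to 2.78). Its highest cluster was E15.5 cluster 0, led by Fst and Clec3b, at 27.8 CPM (23.7 to 32.4). Rspo1 reached 25.8 CPM in E15.5 cluster 14, against 2.31 CPM in the whole class, and Rspo4 was at 1.05 and 1.08 CPM in that class.

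**Figure D2:**
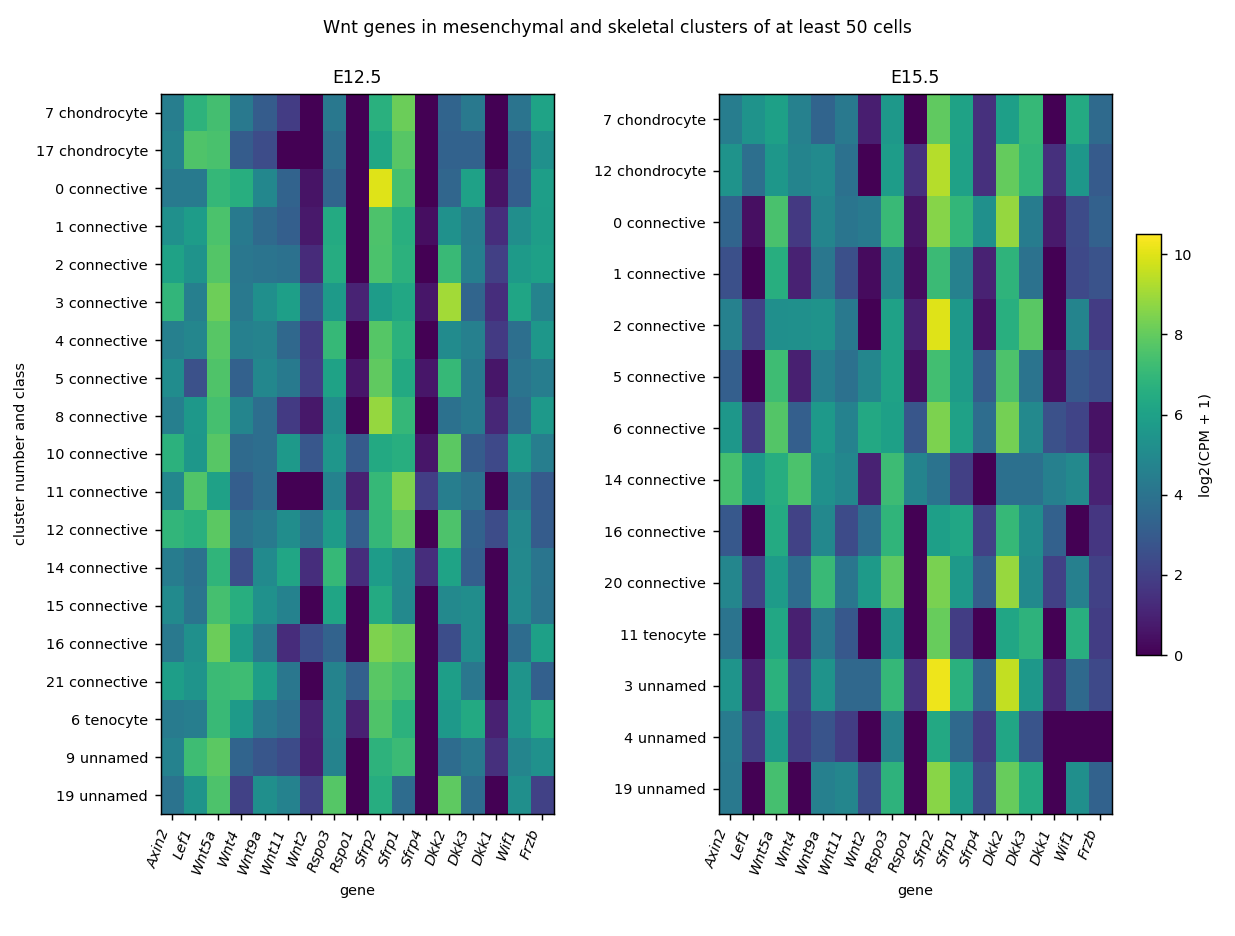
Heatmap of 17 of the genes (columns) over the mesenchymal, skeletal and unnamed clusters of at least 50 cells (rows, both ages), coloured by log2(CPM + 1). Brighter colours are higher levels. Sources differ by cluster: at E15.5 Wnt2 is brightest in cluster 6 (80.4 CPM), Wnt4 in cluster 14 (185 CPM) and Wnt9a in cluster 20 (138 CPM).

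The Frizzled receptors were spread over more classes than the ligands. Fzd2 had 80.5% (79.4 to 81.6%) and 69.8% (68.5 to 71.1%) of its UMIs in connective tissue-like cells, at 215 and 164 CPM, and stood at 78.9 and 41.8 CPM in muscle-lineage-like cells. Fzd3 was highest in Schwann-like cells, at 255 CPM at E12.5 (2.23-fold over the next class, 1.44 to 3.35) and 292 CPM at E15.5 (4.89-fold, 3.29 to 7.55). Frizzled 3 is known for guiding axons. Fzd9 was highest in chondrocyte-like cells at E15.5, at 39.1 CPM against 5.24 CPM in muscle-lineage-like cells, and reached 117 CPM in chondrocyte-like cluster 22, led by Matn1. Fzd10 and Fzd6 were highest in epithelial-like cells at E15.5, at 55.3 CPM (16.4-fold over the next class, 6.88 to 44.8) and 70.8 CPM (2.82-fold, 1.76 to 4.46). Fzd8 was highest in tenocyte-like cells at E12.5, at 195 CPM against 63.7 CPM in connective tissue-like cells (3.06-fold, 2.63 to 3.55). The remaining receptors were broadly spread: in connective tissue-like cells Fzd7 was at 31.5 and 15.2 CPM, Fzd1 at 19.9 and 11.0 CPM, and Fzd5 at 3.11 and 3.98 CPM.

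Fzd4, which also serves as the receptor of Norrin in vessels (chr7:89404355-89413134, plus strand, GRCm38), was higher in muscle-lineage-like than in connective tissue-like cells at both ages. Endothelial-like cells led at E12.5, at 76.8 CPM against 52.7 CPM in muscle-lineage-like cells (1.46-fold, 1.02 to 2.05). At E15.5 the order of 87.9 and 76.8 CPM was within counting error (1.14-fold, 0.96 to 1.36). Connective tissue-like cells stood at 30.8 and 35.5 CPM. With every cell thinned to 2000 UMIs, a Fzd4 UMI was found in 10.6% (8.15 to 13.4%) and 12.3% (9.24 to 16%) of muscle-lineage-like cells at the younger and older age, against 5.41% and 5.83% of connective tissue-like cells. The thinning left out 50 and 5 muscle-lineage-like cells and 3094 and 10 connective tissue-like cells. Without thinning the shares were 18.1% and 55.1% against 6.96% and 25.1%. Immune-like cells, which had similar median depths (4593 and 13168.5 UMIs, against 3763.5 and 14319 in muscle-lineage-like cells), held 0 and 1 UMIs of Fzd4.

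The co-receptor Lrp6 was found in all named classes of over 100 cells. Among these it ranged at E12.5 from 90.8 CPM in muscle-lineage-like cells to 232 CPM in tenocyte-like cells, with 166 CPM in connective tissue-like cells. At E15.5 the muscle-lineage-like, tenocyte-like and connective tissue-like classes stood lower, at 36.4, 51.4 and 93.3 CPM. Lrp5 was at 15.9 CPM in muscle-lineage-like and 15.7 CPM in connective tissue-like cells at E12.5, and at 9.17 and 9.77 CPM at E15.5, so the 2 classes did not differ in Lrp5 beyond counting error at either age.

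Among the secreted inhibitors, Dkk2 and Sfrp2 had most of their UMIs in the mesenchyme. By level, Dkk2 led in Schwann-like cells at E12.5, at 153 CPM, within counting error of connective tissue-like cells. Sfrp2 led in chondrocyte-like cells at E15.5, at 383 CPM (1.15-fold over connective tissue-like cells, 1.08 to 1.23). Dkk2, which binds Lrp5 and Lrp6, was at 124 CPM at E12.5 and 254 CPM at E15.5 in connective tissue-like cells (log2 ratio 1.04, 0.97 to 1.11). An unnamed E15.5 cluster, cluster 3, led by Nefm and Tac1, reached 735 CPM of Dkk2 and 1218 CPM of Sfrp2, and both genes were among its 10 leading genes. The unnamed clusters held 22.8% of the Dkk2 UMIs and 25.2% of the Sfrp2 UMIs at E15.5, so the class values leave out part of the source. Sfrp2, which binds Wnt ligands, reached 1017 CPM in E12.5 cluster 0 and 1026 CPM in E15.5 cluster 2, both led by the joint gene Gdf5, against 274 and 333 CPM in the whole connective tissue-like class. Dkk3, a divergent Dkk protein, reached 223 CPM in the same Gdf5-led cluster at E15.5. By class it led in tenocyte-like cells at E12.5, at 82.5 CPM (3.68-fold over connective tissue-like cells, 2.90 to 4.64). At E15.5 it led in chondrocyte-like cells, at 110 CPM, within counting error of tenocyte-like cells.

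The other inhibitors are described by their level in each class, which need not follow where most of their UMIs lay. Sfrp1 was at 130 and 65.9 CPM in connective tissue-like cells and highest in Schwann-like cells, at 281 and 234 CPM, the first from 33 UMIs and close to the 263 CPM of chondrocyte-like cells. Sfrp5 was highest in Schwann-like cells at E15.5, at 129 CPM against 3.24 CPM in connective tissue-like cells (39.7-fold, 29.2 to 54.4) and 57.5 CPM in connective tissue-like cluster 14. Sfrp4 had 8 UMIs at E12.5 (0.402 CPM) and 290 at E15.5 (14.2 CPM) in connective tissue-like cells, with 38.2 CPM in cluster 0. By class, Wif1 was highest in tenocyte-like cells at both ages, at 45 and 107 CPM. Its highest E12.5 cluster was connective tissue-like cluster 3, at 70.3 CPM. Frzb led in tenocyte-like cells at E12.5 (90.9 CPM) and in chondrocyte-like cells at E15.5 (16.4 CPM).

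The response genes Axin2 and Lef1 were read as the receiving side. Axin2, a direct β-catenin target and negative regulator of the pathway (chr11:108920349-108950783, plus strand, GRCm38), had 86.1% (84 to 88%) and 58.2% (54.6 to 61.6%) of its UMIs in connective tissue-like cells. Its level there was 53.4 CPM at E12.5 and 22.6 CPM at E15.5. At E15.5 epithelial-like cells led with 50.9 CPM, 1.69-fold (1.01 to 2.71) above chondrocyte-like cells at 30.2 CPM, and both stood above connective tissue-like cells. At E12.5 connective tissue-like cells led among classes of at least 20 cells, within counting error of Schwann-like cells (42.5 CPM, 5 UMIs), and the 17 epithelial-like cells stood at 94.1 CPM (5 UMIs). By cluster, Axin2 was highest in cluster 12 (led by Hoxb4, 119 CPM, 101 to 139) and cluster 3 (118 CPM, 103 to 135) at E12.5, whose intervals overlap. At E15.5 it was highest in cluster 14, at 170 CPM (146 to 198), against 46.5 CPM in cluster 6. That cluster also had the highest Wnt4 of the mesenchyme.

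Lef1, a transcription factor of the pathway and itself a target (chr3:131110471-131224356, plus strand, GRCm38), was highest in chondrocyte-like cells at E12.5 among classes of at least 20 cells (137 CPM) and in epithelial-like cells at E15.5 (92.9 CPM, 2.29-fold over the next class, 1.56 to 3.29). The E12.5 lead was within counting error of Schwann-like cells, at 85.0 CPM (1.61-fold, 0.86 to 3.40). In connective tissue-like cells Lef1 was at 46.6 and 3.24 CPM. Its highest mesenchymal cluster at E12.5 was cluster 11, led by Gria2 and Isl1, at 200 CPM (174 to 229). At E15.5 chondrocyte-like cluster 22 reached 120 CPM (87.8 to 159) and connective tissue-like cluster 14 held 48.6 CPM. Spearman's rho was taken over the 22 clusters of at least 50 cells at each age. Between Axin2 and Lef1 it was 0.24 in the E12.5 and 0.57 in the E15.5 library, and between Axin2 and Wnt4 0.18 and 0.67. For the other genes compared with Axin2 it was 0.60 and 0.57 (Wif1), 0.54 and 0.51 (Dkk2), 0.44 and 0.59 (Wnt11), 0.48 and 0.40 (Wnt5a), and 0.36 and 0.56 (Rspo3). Wnt4 was thus not the only gene that varied with Axin2. These are descriptions over clusters of the same library, which differ in class and depth. At E15.5 the median UMIs per cell ran from 1344 in cluster 4 to 17801 in cluster 17. The part of depth in these values was not tested.

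Because Axin2 and Lef1 were both lower at E15.5, their promoters are shown with the 2 member promoters that hold the Tcf/Lef motif CTTTGAT (searched on both strands, where it reads ATCAAAG in reverse) within 250 bases before a start site. The sequences are from RefSeq (GRCm38.p6), written 5′ to 3′ on the gene's strand, with the motif in capitals. Axin2 is chr11:108920099-108920348 (plus strand), Lef1 chr3:131110047-131110296 (plus strand, 1 of 4 listed starts), Wnt11 chr7:98834862-98835111 (plus strand) and Wnt5b chr6:119449387-119449636 (minus strand).
Axin2: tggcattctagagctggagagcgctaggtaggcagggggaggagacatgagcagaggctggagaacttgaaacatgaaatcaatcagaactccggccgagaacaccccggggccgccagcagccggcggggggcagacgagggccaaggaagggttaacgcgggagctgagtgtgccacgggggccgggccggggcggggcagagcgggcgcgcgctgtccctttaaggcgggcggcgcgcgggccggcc
Lef1: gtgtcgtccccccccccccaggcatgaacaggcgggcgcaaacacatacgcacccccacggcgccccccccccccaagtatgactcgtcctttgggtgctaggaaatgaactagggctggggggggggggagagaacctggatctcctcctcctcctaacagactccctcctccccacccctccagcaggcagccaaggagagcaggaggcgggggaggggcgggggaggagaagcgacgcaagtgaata
Wnt11: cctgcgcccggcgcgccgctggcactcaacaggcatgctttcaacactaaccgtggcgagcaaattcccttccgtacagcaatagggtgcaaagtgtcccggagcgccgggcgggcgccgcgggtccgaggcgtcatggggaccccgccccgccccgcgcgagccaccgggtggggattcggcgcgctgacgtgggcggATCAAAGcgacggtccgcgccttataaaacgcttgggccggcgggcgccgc
Wnt5b: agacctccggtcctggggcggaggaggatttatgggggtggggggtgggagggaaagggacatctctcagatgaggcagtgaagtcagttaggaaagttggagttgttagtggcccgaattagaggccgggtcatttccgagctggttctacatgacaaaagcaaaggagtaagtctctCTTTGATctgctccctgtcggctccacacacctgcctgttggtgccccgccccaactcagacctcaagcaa
The motif stands 51 bases before the start in Wnt11, on the strand opposite to the gene, and 71 bases before it in Wnt5b, on the gene's strand. It occurs in 2 of the 37 promoters matched for 31 of the 47 genes (5.41%) and in 1053 of all 32851 promoters of this length (3.205%). Neither the Axin2 window nor any of the 4 Lef1 windows holds these letters. Wnt11 and Wnt5b also have other listed starts, whose windows do not hold the motif.

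Between the ages, the connective tissue-like class had 36 comparable genes. Of these 6 were higher at E15.5 and 8 were lower, where 10.2% of all genes were higher and 24.2% lower. The median log2 ratio was -0.31 for these genes and -0.38 for all genes. Relative to the median gene the counts were 9 higher and 5 lower, against 16.2% and 15% of all genes. Of 9 ligands 2 were higher (Wnt2 and Wnt6) and 0 lower, with a median log2 ratio of -0.24. Of 4 R-spondins 1 was higher (Rspo2) and 0 lower, with a median of 0.62. Of 10 receptors 4 were lower (Fzd3, Fzd6, Fzd7, Fzd9) and 0 higher, with a median of -0.76. Inhibitors went both ways (Sfrp4, Sfrp5 and Dkk2 higher, Frzb and Wif1 lower, of 9), and both response genes were lower. The classes hold different clusters at the 2 ages, as the clusters named above show.

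The largest differences in connective tissue-like cells were these. Sfrp4 differed by a log2 ratio of 5.15 (4.15 to 6.37) and Sfrp5 by 4.43 (2.82 to 6.74, 3 against 66 UMIs). Lef1 differed by -3.85 (-4.23 to -3.49) and Axin2 by -1.24 (-1.40 to -1.08), so both response genes were lower at E15.5. Frzb was at 38.5 and 4.86 CPM (log2 ratio -2.98, -3.30 to -2.68), Wif1 at 31.3 and 8.49 CPM (-1.88, -2.13 to -1.64) and Fzd3 at 104 and 28.8 CPM (-1.85, -1.99 to -1.72). Some of these differences fell short of 2-fold under other processing. With counts scaled to the median gene, Axin2 was at -0.86, Fzd6 at -0.78 and Fzd7 at -0.68, and in cells read as male they were at -0.90, -0.45 and -0.88. Dkk2 was at 0.93 with both libraries clustered together, 0.98 in thinned cells and 0.77 in male cells. The Fzd9 value of -1.65 (-2.31 to -1.03) was not stable: it ranged from -5.46 with a minimum of 1000 genes per cell to 0.38 with joint clustering, and was -0.64 with cells weighted equally and -0.78 in thinned cells. Sfrp2 was at 0.28, but at 1.29 with joint clustering and -0.18 with 4000 variable genes.

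**Figure D3:**
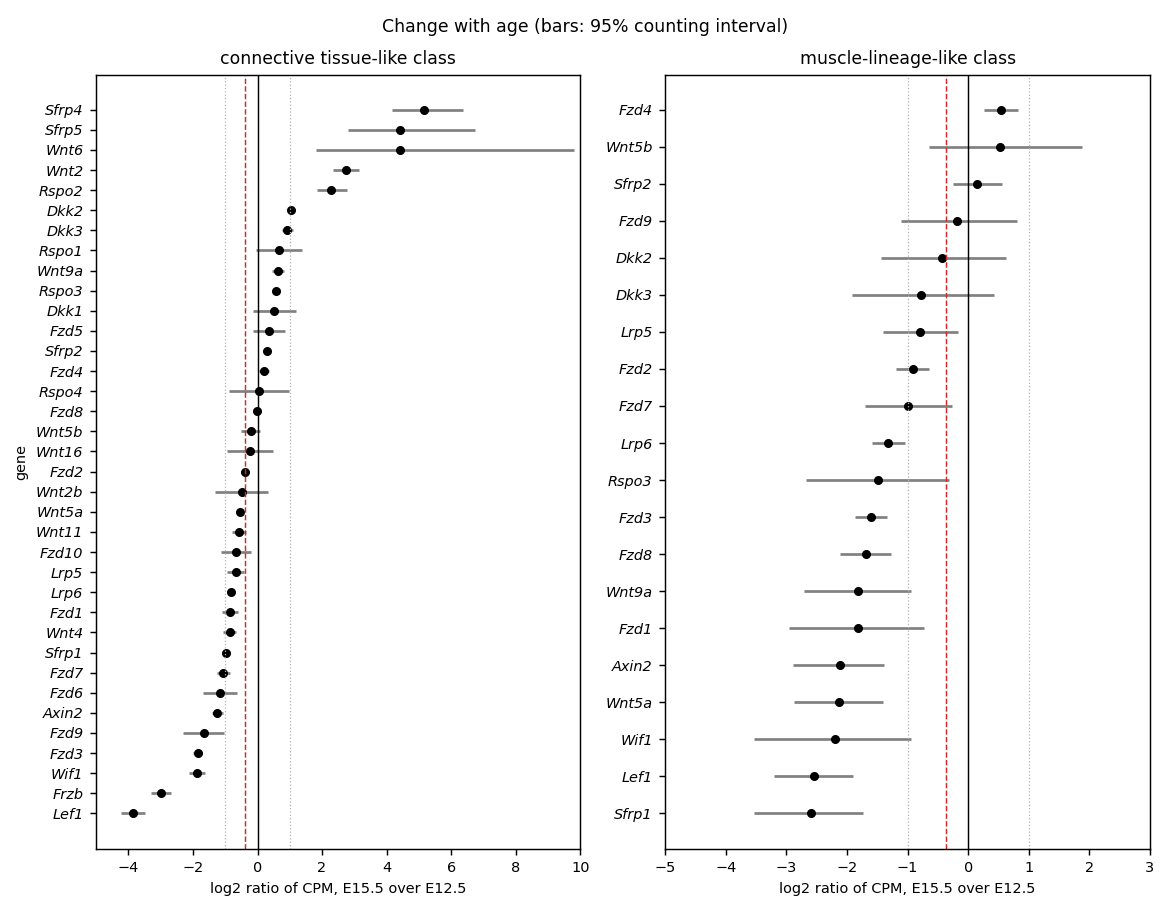
Log2 ratio of CPM at E15.5 over E12.5 (points) with 95% counting intervals (bars) for 36 genes in the connective tissue-like class and 20 in the muscle-lineage-like class. The dashed line is the median of all genes (-0.38 and -0.36) and dotted lines mark 2-fold; in the muscle panel 11 of the 20 points lie below the lower dotted line and none above the upper one.

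In muscle-lineage-like cells 20 genes could be compared, and 11 were lower at E15.5 and 0 higher, where 19% of all genes were lower and 4.56% higher. The median log2 ratio of the 20 was -1.40, against -0.36 for all genes. Relative to the median gene 10 were lower and 0 higher, against 10.2% and 9.88% of all genes. The 11 were the ligands Wnt5a and Wnt9a, Rspo3, the receptors Fzd1, Fzd3 and Fzd8, the co-receptor Lrp6, the inhibitors Sfrp1 and Wif1, and the response genes Axin2 and Lef1. Lef1 was at 28.5 CPM (72 UMIs) and 4.91 CPM (30 UMIs), a log2 ratio of -2.54 (-3.20 to -1.91). Axin2 was at 17.8 CPM (45 UMIs) and 4.09 CPM (25 UMIs), a log2 ratio of -2.12 (-2.89 to -1.39). Fzd3 was at 104 and 34.2 CPM (-1.60, -1.87 to -1.33), Fzd8 at 44.0 and 13.6 CPM (-1.69, -2.12 to -1.27) and Lrp6 at 90.8 and 36.4 CPM (-1.32, -1.59 to -1.05). With counts scaled to the median gene Lrp6 was at -0.96, under the 2-fold limit.

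Fzd4 differed in the other direction in these cells. It had 133 UMIs (52.7 CPM) at E12.5 and 469 UMIs (76.8 CPM) at E15.5 (log2 ratio 0.54, 0.26 to 0.83), below 2-fold. The clusters of this class differed in Fzd4 and in their share of the class at each age, as described below. Sfrp2 was at 28.5 and 31.4 CPM (log2 ratio 0.14), and at 1.15 in cells read as male only, where it passed 2-fold.

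RNA from other cells can reach any droplet, so the muscle values are set beside 11 connective tissue marker genes. Their summed level in muscle-lineage-like cells was 12.9% of that in connective tissue-like cells at E12.5 (620 against 4805 CPM) and 5.25% at E15.5 (861 against 16412 CPM). Of the 11 lower genes, 8 were above that share at E12.5: Lef1 stood at 61.2% of the connective tissue-like level, Fzd8 at 69.1%, Lrp6 at 54.6%, Wnt9a at 54.8% and Axin2 at 33.4%. Wnt5a (9.70%), Rspo3 (9.88%) and Sfrp1 (12.2%) were at or under it, and the part of RNA from connective tissue in their muscle values was not tested. At E15.5 Fzd4 was at 216% and Lef1 at 152% of the connective tissue-like level, whereas Wnt5a was at 3.2%, Rspo3 at 2.4% and Dkk2 at 1.6%.

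Muscle-lineage-like cells held lower levels of most ligands and inhibitors than connective tissue-like cells at both ages. At E12.5, 22 of 33 genes were higher in connective tissue-like cells, where 20.9% of all genes were, and 0 were lower (6.1% of all genes). The median log2 ratio of connective tissue-like over muscle-lineage-like was 1.45 against 0.27 for all genes. The 22 included 7 of 8 ligands, 7 of 7 inhibitors, 5 of 10 receptors, 2 of 4 R-spondins, 0 of 2 co-receptors and 1 of 2 response genes. At E15.5, 29 of 36 were higher (29.5% of all genes) and 2 lower (7.96%), with a median of 2.42 against 0.34. They included 8 of 9 ligands, 4 of 4 R-spondins, 9 of 9 inhibitors, 6 of 10 receptors, 1 of 2 co-receptors and 1 of 2 response genes. Several of the 29 have no UMI in muscle and count through the lower bound.

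The 2 genes that were higher in muscle-lineage-like cells at E15.5 were the receptors Fzd4 (log2 ratio -1.11, -1.28 to -0.94) and Fzd9 (-1.88, -2.66 to -1.11). Fzd4 was at -0.97 with no doublets removed, and Fzd9 at -0.49 with both libraries clustered together. Examples of the other direction were Wnt5a, at 3.37 (2.95 to 3.81) for E12.5 and 4.95 (4.40 to 5.57) for E15.5, Rspo3, at 3.34 and 5.41, and Dkk2, at 4.48 and 5.95. Receptors and co-receptors stood closer: Fzd3 at 0.00 and -0.25, Lrp5 at -0.02 and 0.09, Fzd2 at 1.45 and 1.97. The response genes parted, with Axin2 at 1.58 and 2.46 and Lef1 at 0.71 and -0.60, the last with an interval that includes 0 (-1.24 to 0.07).

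The muscle lineage itself was not uniform. Clusters were divided by whether Pax7, the satellite and progenitor cell factor, was among the 10 leading genes, a rule chosen after the data were seen. The Pax7-led clusters held 402 cells of the younger and 308 of the older library, and the other clusters, led by Myog or by sarcomere genes such as Mylpf, held 206 and 86. Myog was present in the Pax7-led clusters too, at 56.3 CPM at E12.5 and 159 CPM at E15.5. In the other clusters it was at 1147 and 2032 CPM. Pax7 was at 179 and 146 CPM in the Pax7-led clusters. At E12.5, 2 of 13 genes were higher in Pax7-led cells (13.4% of all genes) and 2 lower (9.43%). At E15.5, 3 of 15 were higher (22.9%) and 5 lower (10%). Fzd4 was higher in the Pax7-led cells, at 74.5 against 15.1 CPM at E12.5 (log2 ratio 2.30, 1.5 to 3.21) and 94.5 against 10.8 CPM at E15.5 (3.12, 2.36 to 4.01). The Pax7-led clusters held 119 of the 133 Fzd4 UMIs of the lineage at E12.5 and 455 of the 469 at E15.5.

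The response genes leaned to the other side. Lef1 was at 19.4 CPM in Pax7-led and 44.3 CPM in other clusters at E12.5 (log2 ratio -1.19, -1.91 to -0.48), and at 1.25 and 18.6 CPM at E15.5 (-3.90, -5.48 to -2.57). Axin2 was at 13.1 and 25.9 CPM at E12.5 (-0.98, -1.90 to -0.07) and 2.70 and 9.29 CPM at E15.5 (-1.78, -3.03 to -0.52). Wnt9a was at 7.51 and 18.4 CPM, then 1.25 and 10.8 CPM. Fzd9 had 0 UMIs in Pax7-led clusters and 32 UMIs (24.8 CPM) in the other cluster at E15.5, at least 39.8-fold lower. Fzd2 differed little at E15.5, at 42.4 and 39.5 CPM.

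**Figure D4:**
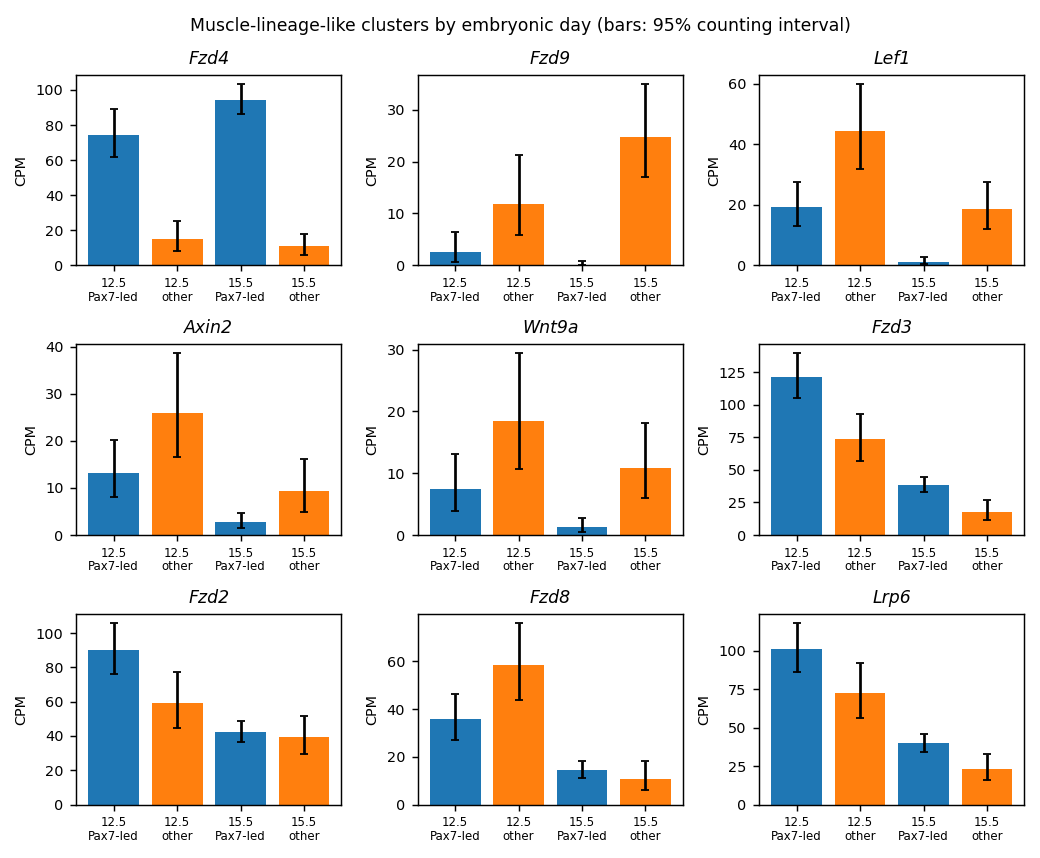
CPM with 95% counting intervals (bars from 0) of 9 genes in Pax7-led and other muscle-lineage-like clusters at both ages. Fzd4 is higher in the Pax7-led bars at both ages (74.5 and 94.5 CPM), whereas Lef1 and Wnt9a are higher in the other clusters.

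In chondrocyte-like cells 12 of 27 comparable genes were higher at E15.5 and 6 lower, where 9.53% and 13.6% of all genes were. The 11 connective tissue markers summed to 1652 CPM in this class at E12.5 and 9680 CPM at E15.5 (34.4% and 59% of their connective tissue-like level), and the 13 chondrocyte markers to 19955 and 9619 CPM. The part of this shift in the class's values was not tested. Dkk2 was at 9.13 and 137 CPM (log2 ratio 3.91, 3.26 to 4.64), Dkk3 at 15.1 and 110 CPM (2.87, 2.35 to 3.44), Sfrp2 at 92.3 and 383 CPM (2.05, 1.83 to 2.28) and Wif1 at 13.2 and 60.4 CPM (2.19, 1.61 to 2.81). These were 4 of the 6 inhibitors compared, and the others, Sfrp1 (263 and 73.1 CPM) and Frzb (58.0 and 16.4 CPM), were lower. Wnt5a was lower too, at 168 and 47.7 CPM (-1.82, -2.12 to -1.52), and Lef1 at 137 and 40.6 CPM (-1.75, -2.08 to -1.43). Matn1 and Hapln1 were among the leading genes of both E12.5 clusters and of E15.5 cluster 22 (44 cells). The other E15.5 clusters were led by Mia and Cytl1 (160 of 303 cells) or by Col9a3 and Col2a1 with cycling genes (99 cells). Against chondrocyte-like cells, connective tissue-like cells were higher in 13 of 33 genes at E12.5 and lower in 3 (Fzd9, Lef1 and Sfrp1), where 13% and 5.58% of all genes were. In the older library they were higher in 9 of 36 and lower in 7, where 8.97% and 8.52% of all genes were. The lower ones were Fzd9, Lef1, Wif1, Wnt16, Frzb, Fzd6 and Dkk3.

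In the smaller classes counts limited the comparison. Tenocyte-like cells had 22 comparable genes, 1 higher (8.45% of all genes) and 10 lower (24.5%). Wif1 was the higher one (45 and 107 CPM, log2 ratio 1.25, 0.78 to 1.75), and Frzb had 97 and 3 UMIs (-5.58, -7.88 to -3.99). The E12.5 cluster rests on the 3 tendon markers Scx, Mkx and Tnc and was led by Dcc, while both E15.5 clusters were led by Tnmd. The 7 tenocyte markers summed to 753 and 3431 CPM in this class, the 13 chondrocyte markers to 6433 and 1600 CPM and the 11 connective tissue markers to 3412 and 17071 CPM, and their part in these differences was not tested. Endothelial-like cells had 11, with 2 higher (7.05%) and 4 lower (12.2%): Lef1 was at 29.4 and 0.966 CPM (18 and 2 UMIs) and Fzd4 at 76.8 and 87.9 CPM. Schwann-like cells had 12, with 3 higher (14.1%) and 1 lower (13.2%). The lower gene was Lef1, at 85.0 and 20 CPM, and Sfrp5 had 2 UMIs among 30 cells at E12.5 and 122 among 82 cells at E15.5. Lef1 was thus at least 2-fold lower at E15.5 in the connective tissue-like, muscle-lineage-like, chondrocyte-like, tenocyte-like, endothelial-like and Schwann-like classes.

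Other pathway genes were followed in 5 lists. In muscle-lineage-like cells 9 of 21 secretion and intracellular genes were lower at E15.5, as were 7 of 14 co-receptor and receptor turnover genes, 3 of 5 other secreted inhibitors, 4 of 8 planar cell polarity genes and 3 of 9 feedback and target genes, where 19% of all genes were lower and 4.56% higher. A single gene of these lists was higher, Ccn4 (5.15 and 43.2 CPM, log2 ratio 3.07), a secreted matricellular protein. Relative to the median gene the lower counts were 6, 4, 1, 3 and 1 in the same order, against 10.2% of all genes. The feedback and target genes (1 of 9) were then near that share. On this scale 1 planar cell polarity gene and 1 feedback and target gene were higher, against 9.88% of all genes. Wls, which carries Wnt proteins to the cell surface, was at 177 and 53.9 CPM (-1.72), Lgr5, an R-spondin receptor, at 16.3 and 3.93 CPM (-2.05), and Nkd1, a feedback inhibitor, at 25.0 and 5.40 CPM (-2.21). In connective tissue-like cells 0 of 22 secretion and intracellular genes were higher and 7 lower, and 3 of 13 feedback and target genes were higher and 4 lower. These shares lower lie near the 24.2% of all genes that were lower, beside 10.2% higher. There Ccnd1, the cyclin often used as a target, was at 522 and 177 CPM (-1.56), Tle3, a co-repressor, at 87.4 and 22.6 CPM (-1.95), and Ccn4 at 18.6 and 56.9 CPM (1.61).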

How the data were processed

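Single-cell RNA-seq (10x Genomics, 3′ chemistry) of 1 E12.5 and 1 E15.5 library gave the authors' deposited matrices of raw UMI counts per gene and barcode, made with Cell Ranger 4.0.0 per the file headers. The submitters' processing notes also name mm10 and Seurat 4.3.0. The annotation release and cell-calling settings are not given in the sources used here. The genes and lists described were chosen with earlier results of these data known, and the marker and naming rules follow an earlier analysis of them.

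Barcodes with at least 500 genes and under 10% mitochondrial UMIs were kept. This left out 604 and 166 barcodes at E12.5, and 1376 and 644 at E15.5. Doublets were then removed by a score against simulated doublets (2 per cell, expected rate 0.8% per 1000 barcodes), which took 1270 cells (10.3%) and 190 cells (4.63%). Each library was clustered alone on 2000 variable genes, with the genes described, the pathway lists, and 25 proliferation and sex genes left out, 30 principal components, 15 neighbours and Leiden resolution 1.0. Outside connective tissue, a cluster was named from at least 3 markers 2-fold above the other cells and found in 10% of its cells. A class marker also had to be among its 10 leading genes. Remaining clusters were called connective tissue-like from at least 3 markers found in 10% of cells. These were 2-fold above the summed named clusters outside the chondrocyte and tenocyte classes, not above all other cells. Clusters with more leading markers of another class, or shallow ones without a leading connective tissue marker, stayed unnamed. Every gene of the family with at least 20 UMIs in the kept cells could be named, with its values in its highest class and in the connective tissue-like and muscle-lineage-like classes, and pathway genes came from the 5 lists.

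UMIs were summed per class and library and given as CPM. Intervals are exact Poisson for CPM, exact Clopper-Pearson for shares and exact conditional for ratios, at 95%. Ratios and intervals were tested on simulated data. Shares of cells were compared after thinning to 2000 UMIs. Positions are from GENCODE vM21 (32158 of 32285 gene IDs matched, all 47 genes among them). Alternatives covered the gene minimum, doublets, resolution, variable genes, joint clustering, scaling, cell weights, thinning, the UMI minimum, and cells read as male or female. Python 3.11.15, numpy 2.4.6, scipy 1.17.1, scikit-learn 1.9.0, scanpy 1.11.5, igraph 0.11.9, leidenalg 0.10.2 and matplotlib 3.10.9 were used.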

Additional observations from a re-analysis of the deposited data

Results flagged for a closer look

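Some of the genes were at least 2-fold higher at E15.5 in one cell class and at least 2-fold lower in another. With 1 library per age these differences between classes were not tested. Values are log2 ratios of CPM at E15.5 over E12.5. Wif1, an extracellular inhibitor that binds Wnt ligands, was at 2.19 in chondrocyte-like and 1.25 in tenocyte-like cells, against -1.88 in connective tissue-like and -2.19 in muscle-lineage-like cells. Fzd8 was at 1.58 in chondrocyte-like cells, against -1.69 in muscle-lineage-like and -1.44 in tenocyte-like cells. Rspo3 was at 1.47 in chondrocyte-like and -1.48 in muscle-lineage-like cells, and Wnt9a at 1.48 and -1.81 in the same classes. Sfrp2 was at 2.05 in chondrocyte-like and -1.44 in endothelial-like cells, and Wnt11 at 2.99 in chondrocyte-like and -1.37 in tenocyte-like cells. The chondrocyte-like class is on the higher side for all 6 genes. Its E15.5 clusters of 160 and 99 cells had other first leading genes than its E12.5 clusters. The smallest E15.5 cluster (44 cells) shared Matn1 with them. Connective tissue markers summed to 1652 CPM in that class at E12.5 and 9680 CPM at E15.5, and chondrocyte markers to 19955 and 9619 CPM, and their part in these values was not tested. The Rspo3 level in muscle-lineage-like cells at E12.5 (9.88% of the connective tissue-like level) was under the 12.9% of connective tissue markers there.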

How the results depend on the processing

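No paired analysis was possible because each age has 1 library. Of 130 values of the 10 counts under 13 alternatives, 13 were outside 1.5 times the reported count. The number of genes lower at E15.5 in connective tissue-like cells was 5 with counts scaled to the median gene. In muscle-lineage-like cells the number lower was 7 with at least 50 UMIs and 5 in cells read as male only, where 1 was higher (Sfrp2, 1.15). Genes higher in muscle-lineage-like than in connective tissue-like cells numbered 1 at E12.5 with both libraries clustered together, scaled to the median gene or thinned to 2000 UMIs. At E15.5 they numbered 1 with no doublets removed, joint clustering, cells weighted equally, thinned cells or male cells only. With 1000 detected genes, 8 genes had their highest level in connective tissue-like cells at E15.5. Ratios of single genes that took the opposite sign were Fzd9 in connective tissue-like cells between ages (0.38, joint clustering) and, for connective tissue-like over muscle-lineage-like cells at E12.5, Fzd5 (-0.000862, thinned), Fzd10 (-0.14, male only), Wnt2 (-0.47, female only) and Rspo2 (-0.23, thinned, and -0.21, female only). The causes were not tested. Genes under 20 UMIs, and the 17 and 26 epithelial-like and 30 Schwann-like cells, are limited by depth, and the unnamed clusters hold part of the Dkk2 and Sfrp2 signal.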
